A study of Homo sapiens with 2 samples.

Results

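The DEAD and DEAH box RNA helicases are a family of enzymes named after a conserved run of amino acids, written in single-letter code as D-E-A-D or D-E-A-H, that takes part in ATP hydrolysis. DEAD box enzymes (DDX symbols) bind RNA and pry short duplexes apart locally, whereas DEAH box enzymes (DHX symbols) pull along a strand. They drive splicing, mRNA export, ribosome assembly, translation and RNA decay, and in dividing intestinal tumour cells they serve the steady demand for new ribosomes and mature mRNA. The genes described here were taken by symbol: those that begin with DDX or DHX followed by a number and at most 1 letter. Of 56 such symbols in the count tables, 4 were left out (the antiviral RNA sensors DDX58 and DHX58, the interferon-induced DDX60, and the Y-linked DDX3Y). That left 52 of 52402 gene symbols. The symbol rule uses no measured value, but the family was proposed with the ratios between the libraries already known, so every value below is a description and none is a test.

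The cells were DLD1, a human colorectal adenocarcinoma line, and RNA was sequenced from 1 control library (genotype WT) and 1 library with the genotype HERV-R Knockout. HERV-R is a human endogenous retrovirus, and the study's title puts the question as the effect of removing its envelope gene on tumour cell properties. Both libraries carry the same treatment text, a transfection of Cas9 and guide RNA vectors followed by hygromycin selection of colonies. The control's vectors, and the number of clones behind each library, were not given in the sources used here. With 1 library per group there is no replicate check of any difference, and p-values are not given.

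The control held 21881122 counts and the other library 16406308. ERV3-1, the gene of the HERV-R envelope protein, had 127 counts (5.80 CPM, counts per 1000000 counts of the library) in the control, against 125 (7.62 CPM) in the other, so its RNA was not lower where a knockout is labelled. The second library is therefore called the knockout-labelled library, and each direction below rests on that label. Of 10 colon epithelial markers 7 were measured, EPCAM among them at 701 and 750 CPM, while KRT20 and CDX1 had 0 counts in both. The symbol KRT20 stands on 2 rows, so its 0 is not read as absence of the RNA. Among the measured ones KRT8, KRT18 and KRT19 were at least 2-fold lower and CDX2 at least 2-fold higher in the knockout-labelled library. Of the markers of other cell types, 1 of 7 fibroblast genes, 0 of 6 blood and immune genes and 0 of 4 endothelial genes reached a mean of 1 CPM. Their summed levels were 5.76 and 2.80 CPM for fibroblasts, 0.183 and 0.427 CPM for blood and immune cells, and 0.640 and 0.427 CPM for endothelium (control first).

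Most helicase genes stood higher in the knockout-labelled library than in the control, and DDX39A, which packages mRNA for export, stood far above the rest. A gene counted as measured at a mean of at least 1 CPM over both libraries, which 45 of the 52 reached. The log2 ratio divides the knockout-labelled value by the control value after 1 CPM is added to each, which understates differences of genes at low CPM, and a gene passed the 2-fold rule when that ratio reached 1 or more, or -1 or less. By this rule 8 of the 45 were higher (DDX39A, DDX28, DDX51, DHX9, DHX37, DHX29, DDX56 and DHX34), 0 were lower and 37 lay between. Over all 12644 genes compared, 6.78% were higher and 5.69% lower by the same rule. A log2 ratio above 0 was found for 38 of the 45 genes and for 58.1% of all genes compared. The median log2 ratio was 0.67 for the helicases and 0.12 for all genes compared. These shares are set side by side because the family was chosen on this contrast, and nothing is read from them. The same shares of all genes are the background for the counts of role groups and other lists below.

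How libraries are scaled shifts every ratio. Scaling by TMM (a trimmed mean of gene ratios), by the upper quartile or by the median of gene ratios moved the log2 ratios by -0.12, -0.14 and -0.16, or slightly less for genes at low CPM because of the 1 CPM added. The helicases then divided into 7 higher and 1 lower with TMM or the upper quartile, and 6 higher and 1 lower with the median of gene ratios. DHX34 lost the rule under each of these scalings, DDX56 under the median of gene ratios (0.99), and DDX47 became the lower gene (-1.01 with TMM).

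Summed over the 52 symbols, helicase RNA made up 0.385% of counts in the control, against 0.532% in the knockout-labelled library, a ratio of 1.38 (95% counting interval 1.37 to 1.39). Intervals here are exact, cover counting error only, and are too narrow where PCR copies of 1 molecule were counted. They carry no information on the spread between cultures. In bulk RNA, more cells that express a gene and more RNA per cell cannot be told apart. The interval of the single-gene ratio lay above 1 for 36 of the 45 genes, below 1 for 5, and included 1 for 4 (DDX59, DDX21, DDX19B and DDX60L). These intervals rest on library totals. The same count was not made over all genes compared, so nothing is read from it.

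**Figure D1:**
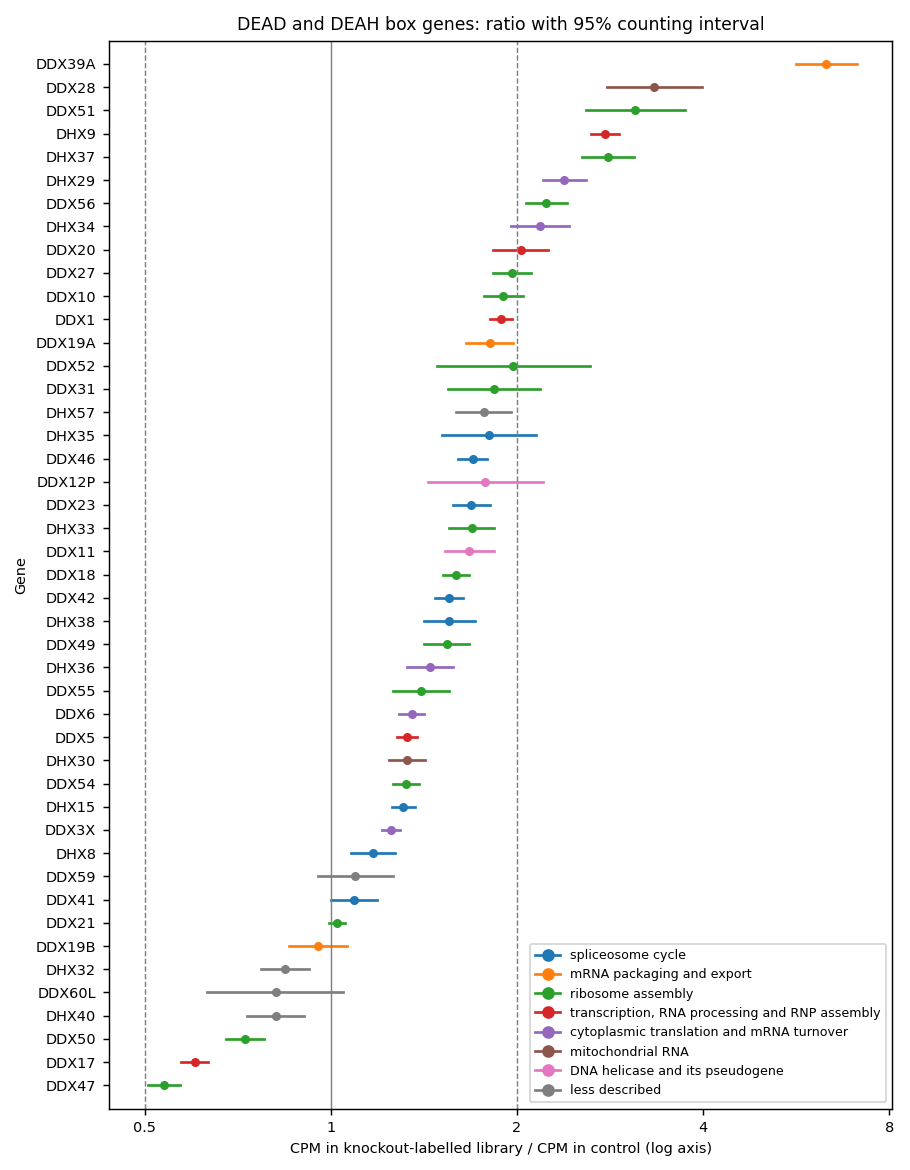
Ratio of CPM in the knockout-labelled library to CPM in the control (log axis) for each of the 45 measured helicase genes, ordered by log2 ratio and coloured by role. Points are ratios without added CPM, bars are 95% counting intervals, the solid line is 1 and the dashed lines are 2-fold; DDX39A stands apart at 6.32 and DDX47 is lowest.

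The sequences just before the transcription start are shown for 4 genes on which the contrast turns: DDX39A, DHX9 and DHX37, which passed the rule, and DDX17, which had one of the lowest ratios. Each is the run of 250 bases before the RefSeq start (GRCh38.p14), written 5′ to 3′ on the gene's strand, and capitals mark matches to the motifs named below them. Windows in which more than 30 bases are annotated as exon, of the gene or of a neighbour, are not shown. The DDX17 window holds 26 such bases and lies inside the span of the GENCODE gene model, which has a start further upstream. The windows are chr19:14419384-14419633 (minus strand) for DDX39A, chr1:182839097-182839346 (plus) for DHX9, chr12:124989132-124989381 (minus) for DHX37 and chr22:38506312-38506561 (minus) for DDX17.
DDX39A: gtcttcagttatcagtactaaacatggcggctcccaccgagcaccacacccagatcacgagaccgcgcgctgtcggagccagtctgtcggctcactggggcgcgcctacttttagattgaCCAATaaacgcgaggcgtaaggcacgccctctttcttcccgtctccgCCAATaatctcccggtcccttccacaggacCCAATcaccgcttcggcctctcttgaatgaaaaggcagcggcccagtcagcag
DHX9: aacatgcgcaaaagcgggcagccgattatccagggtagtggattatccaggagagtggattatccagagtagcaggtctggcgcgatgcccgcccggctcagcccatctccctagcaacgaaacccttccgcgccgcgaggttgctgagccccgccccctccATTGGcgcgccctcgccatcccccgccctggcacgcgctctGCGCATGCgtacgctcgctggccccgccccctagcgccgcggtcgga
DHX37: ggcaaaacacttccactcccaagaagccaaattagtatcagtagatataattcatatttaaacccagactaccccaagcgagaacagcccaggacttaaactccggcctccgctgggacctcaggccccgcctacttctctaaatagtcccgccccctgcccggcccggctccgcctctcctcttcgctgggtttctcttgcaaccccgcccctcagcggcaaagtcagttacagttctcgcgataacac
DDX17: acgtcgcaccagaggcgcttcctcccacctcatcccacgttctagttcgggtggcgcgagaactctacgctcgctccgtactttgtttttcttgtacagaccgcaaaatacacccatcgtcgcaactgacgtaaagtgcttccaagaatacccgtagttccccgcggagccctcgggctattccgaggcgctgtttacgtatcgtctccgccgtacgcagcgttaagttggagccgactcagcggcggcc

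The DDX39A window holds 3 CCAAT boxes, whose first bases lie at -130, -83 and -53 from the start. DDX39A has 2 RefSeq starts listed, and only the first listed was used, as for every gene. DHX9 has 1 CCAAT box, at -88 (read as ATTGG, on the other strand), and an NRF1 element at -47. The DHX37 and DDX17 windows hold none of the 5 motifs searched. These were the CCAAT box, an E2F element (TTTCCCGC), the E-box (CACGTG), an NRF1 element (GCATGCGC) and an ETS element (CCGGAAG), each on both strands. Windows were found for 40 of the 45 measured genes, and no 2 motifs overlapped in the windows printed. A CCAAT box stood in 18 of the 40 windows (45.0%), against 33.0% of all 27305 windows and 35.2% of the 9370 windows of genes compared. Among the 8 genes that passed, 6 had a CCAAT box, and so did 3 of the 7 genes with a log2 ratio below 0. These counts take in windows that are not shown because of their exon bases. Among the 6, the windows of DDX28, DDX56, DHX29 and DHX34 hold 250, 250, 213 and 34 exon bases. Among the 3, that of DDX50 holds 37, and the others were not examined for exon bases. The ETS element stood in 13 of the 40 (32.5%, against 8.82% of all windows and 16.6% of genes compared), but in 1 of the 8 that passed. The E-box stood in 7 (17.5%, against 6.49% and 8.90%), the E2F element in 2 (5.00%, against 1.42% and 2.31%) and the NRF1 element in 4 (10.0%, against 2.81% and 4.90%). A match is a run of letters and shows neither binding nor a cause.

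The mRNA packaging and export genes held the highest ratio of the family, that of DDX39A, and were divided among themselves. DDX39A and its paralog DDX39B unwind RNA while the TREX complex loads onto new mRNA, and DDX19A and DDX19B strip export proteins from mRNA at the cytoplasmic face of the nuclear pore. DDX39A (chr19:14408819-14419383, minus strand) had 371 counts in the control, against 1757 in the knockout-labelled library, 17.0 and 107 CPM. That is 6.32-fold higher (5.64 to 7.08), with log2 ratios between 2.35 and 2.65 under the scalings and pseudocounts tried. Per kilobase of exon, DDX39A went from 4.42 to 27.9 CPM per kb, and from rank 35 to rank 9 of the 45. The length is the union of all annotated exons, so levels and ranks of different genes compare only roughly.

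DDX39B could not be set beside it. Its symbol stands on 8 rows of the tables, 7 of them with 0 counts in the control, and the sum was 14 counts against 11 (0.640 and 0.670 CPM), under the minimum. DDX19A had 40.5 and 73.1 CPM (1.81-fold higher, 1.65 to 1.97). Its neighbour on chromosome 16, DDX19B, had 36.8 and 35.2 CPM (ratio 0.955, 0.856 to 1.06). The DDX19 genes share sequence: of the 50-base runs in annotated transcripts, 8.24% of those of DDX19A are also in DDX19B, and 14.7% of those of DDX19B in DDX19A. Reads from such stretches can be lost or given to either gene. The share of DDX19A in the counts of this pair was 52.4% (49.95 to 54.8) in the control, against 67.5% (65.3 to 69.7) in the knockout-labelled library.

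The other genes of this export route were measured for 21 of 22 listed symbols found in the files, with 3 higher, 0 lower and a median of 0.39. Over all genes compared, 6.78% were higher and 5.69% lower, so nothing is read from these counts. The 3 were THOC1, a TREX subunit (19.7 and 60.6 CPM; 3.07-fold, 2.74 to 3.44), NXF1, the export receptor (29.7 and 66.8 CPM; 2.25-fold), and ALYREF, the adaptor that binds DDX39A and DDX39B (56.9 and 118 CPM; 2.07-fold). ALYREF lost the rule under each other scaling, and NXF1 under the median of gene ratios. The other THO subunits listed did not pass the rule and had ratios of 1.36 (THOC2), 0.953 (THOC3), 1.53 (THOC5), 0.924 (THOC6) and 1.19 (THOC7). GLE1, which activates DDX19 at the pore, had 53.6 and 86.8 CPM.

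**Figure D2:**
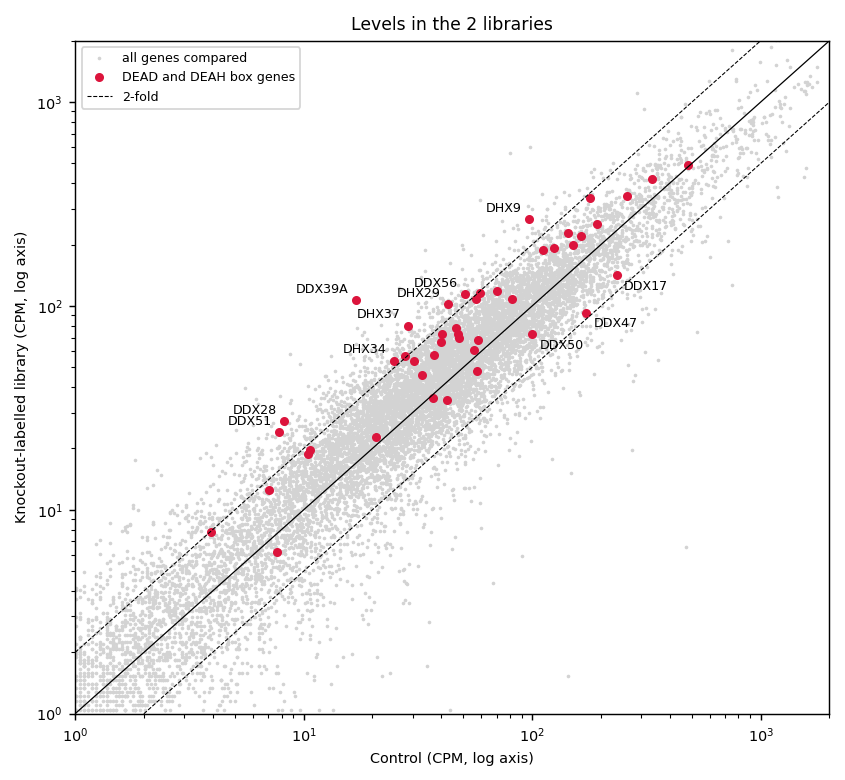
CPM in the control (horizontal, log axis) against CPM in the knockout-labelled library (vertical, log axis) for all genes compared (grey) and the helicase genes (red). The solid line is equality and the dashed lines are 2-fold; DDX39A lies at 17.0 and 107 CPM, above the other helicases of similar control level, and DDX47 and DDX17 lie below equality.

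Helicases that serve ribosome assembly made up the largest group, 15 measured of 16, and held both high and low ratios. They unwind snoRNA from precursor rRNA or remodel the growing subunits in the nucleolus. In this group 3 passed the rule upward, 0 downward and 12 lay between, with a median of 0.74 and a range of -0.89 to 1.52. DDX51, which acts on the precursor of the large subunit's rRNA, had 170 and 395 counts (7.77 and 24.1 CPM), 3.10-fold higher (2.58 to 3.73). DHX37, which releases the U3 snoRNA from the small subunit precursor, had 624 and 1313 counts (28.5 and 80.0 CPM), 2.81-fold higher (2.55 to 3.09). DDX56, a nucleolar enzyme of large subunit assembly, had 1116 and 1867 counts (51.0 and 114 CPM), 2.23-fold higher (2.07 to 2.41). DDX51 lies on chr12:132136594-132144335, DHX37 on chr12:124946825-124989122 and DDX56 on chr7:44565417-44575051, all on the minus strand.

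Just below the rule stood DDX27 (59.3 and 116 CPM, log2 ratio 0.96) and DDX10 (56.8 and 108 CPM, 0.91), and just inside it DDX56 (1.14). DDX31 (10.7 and 19.6 CPM), DHX33 (46.2 and 78.1 CPM) and DDX18 (143 and 228 CPM) followed, with ratios of 1.84, 1.69 and 1.59. DDX52 had 3.93 and 7.74 CPM, a ratio of 1.97, but its symbol stands on 2 rows and the value rests on 86 and 127 counts (1.49 to 2.62). DDX49, DDX55 and DDX54 had lower ratios than these, 1.54, 1.40 and 1.32. They had 47.2 and 72.7, 32.8 and 45.9, and 151 and 200 CPM.

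DDX21 had the highest level per kilobase of the family in both libraries, 95.7 and 97.9 CPM per kb, and nearly the same CPM in both (480 and 491; ratio 1.02, 0.994 to 1.05), a log2 ratio that turned below 0 under each other scaling. It couples rRNA transcription to processing. DDX50, its paralog next to it on chromosome 10, had 100.1 and 72.8 CPM, 1.38-fold lower in the knockout-labelled library (1.28 to 1.48). They had no 50-base run in common in annotated transcripts, so reads of that length tell them apart. The share of DDX21 in the counts of the pair was 82.8% (82.1 to 83.4) in the control, against 87.1% (86.4 to 87.8) in the knockout-labelled library.

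DDX47, which acts in small subunit assembly, had the lowest ratio of the family. It had 3774 counts in the control, against 1520 in the knockout-labelled library, 172 and 92.6 CPM, 1.86-fold lower (1.75 to 1.98). DDX47 (chr12:12813316-12829981, plus strand) shares 1841 exon bases with APOLD1 on the same strand, and APOLD1 had 9.73 and 12.6 CPM. Its level per kilobase moved from rank 5 to rank 19. So the group held both DDX51 and DDX47, and no single direction covered it.

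Helicases of the spliceosome cycle lay close together, with log2 ratios above 0 (apart from DDX41 with the upper quartile and the median of gene ratios, -0.02 and -0.03) and none past the rule. Each acts at its own step: DDX46 and DDX42 with the U2 snRNP, and DDX23 in the exchange of U1 for U6. DHX16 and DHX38 act around the catalytic steps, DHX8 at mRNA release and DHX15 at disassembly. Of 9 genes 8 were measured, with log2 ratios from 0.12 to 0.79 and a median of 0.63. DHX35, found in catalytic spliceosomes, had the highest ratio, 10.5 and 18.8 CPM (1.80; 1.51 to 2.14), and DDX41 the lowest, 55.7 and 60.7 CPM (1.09; 1.001 to 1.19). DDX46 (111 and 188 CPM) and DDX23 (70.1 and 118 CPM) had nearly equal ratios of 1.70 and 1.69. DDX42 (124 and 193 CPM) and DHX38 (37.1 and 57.7 CPM) were likewise close, both at 1.55. DHX15 had 192 and 252 CPM and DHX8 58.0 and 67.9 CPM, ratios of 1.31 and 1.17. The ninth gene, DHX16, stands on 8 rows and had 1 and 9 counts in all.

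Some DEAH box helicases are switched on by proteins with a G-patch, a short glycine-rich stretch that grips the enzyme. All 19 G-patch genes listed were measured, and all 19 had a log2 ratio above 0, also under the other scalings and pseudocounts tried. By the rule 5 were higher and 0 lower, with a median of 0.65. Over all genes compared, 58.1% had a log2 ratio above 0, 6.78% were higher and 5.69% lower. The list was chosen with earlier results known, so nothing is read from these counts. GPATCH4 had 23.7 and 94.5 CPM (3.99-fold; 3.61 to 4.41), RBM10, an alternative splicing regulator, 43.8 and 163 CPM (3.72-fold; 3.46 to 4.01), and PINX1, a nucleolar inhibitor of telomerase, 13.5 and 37.1 CPM (2.74-fold). RBM5, a relative of RBM10, was 2.27-fold higher, and SUGP1, which works with DHX15 in branch site choice, passed at 2.13-fold (log2 ratio 1.05) but not under the other scalings or a pseudocount of 5 CPM. TFIP11, the partner of DHX15 in disassembly, had 33.7 and 52.2 CPM.

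Among helicases of transcription, RNA processing and RNP assembly, DHX9 passed the rule and the paralogs DDX5 and DDX17 parted. DHX9 (chr1:182839369-182887751, plus strand) unwinds double-stranded RNA and R-loops and serves as a transcription cofactor. It had 2114 and 4393 counts, 96.6 and 268 CPM, 2.77-fold higher (2.63 to 2.92), and went from rank 11 to rank 3 per kilobase. DDX20, the SMN complex helicase known as Gemin3, stood just outside the rule at a log2 ratio of 0.99 (27.9 and 56.5 CPM), and passed with a pseudocount of 0.1 CPM. DDX1, a member of the tRNA ligase complex, had 179 and 338 CPM (ratio 1.88; 1.81 to 1.96).

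DDX5 and DDX17 are coactivators of transcription that also act in splicing and microRNA processing, and their proteins can pair. DDX5 had 5675 and 5656 counts, 259 and 345 CPM, a ratio of 1.33 (1.28 to 1.38). DDX17 (chr22:38483440-38507660, minus strand) had 5139 and 2321 counts, 235 and 141 CPM, 1.66-fold lower (1.58 to 1.74). Near-equal in the control, the counts of this pair were 52.5% DDX5 (51.5 to 53.4) there and 70.9% (69.9 to 71.9) in the knockout-labelled library. A share within 1 library does not depend on the scaling, and the paralogs had no 50-base run in common. KDELR3, which touches DDX17 on the opposite strand over 8 exon bases, had 50.5 and 12.8 CPM; the use of strand in counting was not given in the sources used here. Its part in the DDX17 value was not tested.

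**Figure D3:**
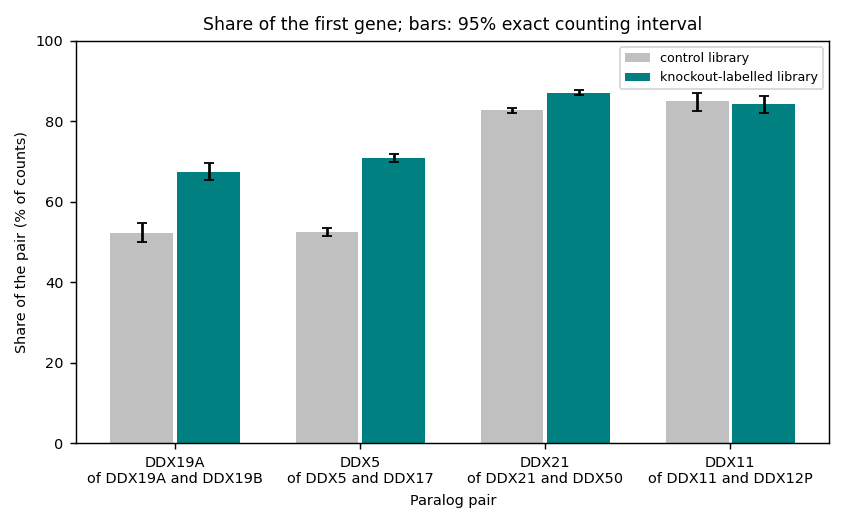
Share of the first-named gene in the summed counts of 4 pairs of related genes (percent), in the control (grey) and the knockout-labelled library (green), with exact 95% counting intervals. The shares of DDX19A (52.4% and 67.5%) and DDX5 (52.5% and 70.9%) differ most between the libraries, and that of DDX11 least (85.0% and 84.3%).

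All 5 helicases of cytoplasmic translation and mRNA turnover had log2 ratios above 0 under all scalings and pseudocounts tried, and 2 passed the rule. DHX29 (chr5:55256245-55307722, minus strand), which helps the small ribosomal subunit scan structured leaders, had 936 and 1674 counts, 42.8 and 102 CPM, 2.39-fold higher (2.20 to 2.59). DHX34 (chr19:47349281-47382704, plus strand), a factor of nonsense-mediated decay, had 541 and 884 counts, 24.7 and 53.9 CPM, 2.18-fold higher (1.96 to 2.43). DHX34 was the gene closest to the rule from inside (log2 ratio 1.09), and a pseudocount of 5 CPM also put it outside (0.99).

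DHX36, which opens G-quadruplexes, had 47.9 and 69.2 CPM, nearly all of it on 1 of its 2 rows. DDX6, the decay and storage factor of P-bodies, had 164 and 221 CPM (1.35; 1.29 to 1.42). DDX3X, which promotes translation of structured mRNA, had 336 and 420 CPM and the lowest ratio of the group (1.25; 1.21 to 1.29). Of 15 partners of these enzymes, 1 passed the rule, the scaffold EIF4G1 (465 and 982 CPM; 2.11-fold higher, 2.06 to 2.16), which lost it under each other scaling (0.95 with TMM). The median of the 15 was 0.10 (-0.03 with TMM), and CNOT1, which binds DDX6, had 407 and 429 CPM.

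Of the pair with mitochondrial roles, DDX28 passed the rule and DHX30 did not. DDX28, which helps assemble the large subunit of the mitochondrial ribosome, had 179 and 447 counts, 8.18 and 27.2 CPM, 3.33-fold higher (2.79 to 3.98). The gene is a single exon block on chr16:68021274-68023442 (minus strand) and shares 487 exon bases with DUS2 on the opposite strand. DUS2, which modifies tRNA, had 8.50 and 16.0 CPM, so without strand in counting part of either value could belong to the other. DHX30, which binds mitochondrial RNA in granules, had 81.9 and 109 CPM (1.33; 1.24 to 1.42).

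DDX11, a DNA helicase of sister chromatid cohesion, and its pseudogene DDX12P had nearly the same ratio. DDX11 had 39.9 and 66.9 CPM (1.68; 1.53 to 1.83) and DDX12P 7.04 and 12.5 CPM (1.78; 1.43 to 2.20). Of the 50-base runs of DDX12P, 43.8% are also in DDX11, so their reads cannot be fully told apart, and the DDX11 share of 85.0% (82.7 to 87.1) and 84.3% (82.2 to 86.2) overlapped between the libraries.

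The 5 less described genes were the one group with a median below 0 (-0.24). DHX40 (42.3 and 34.4 CPM), DHX32 (57.1 and 48.2 CPM) and DDX60L (7.63 and 6.22 CPM) were lower in the knockout-labelled library, by 1.23-fold, 1.19-fold and 1.23-fold. The interval of DDX60L (0.954 to 1.59) included no difference. DDX59 had 20.7 and 22.7 CPM, and DHX57, the exception, 30.4 and 53.7 CPM (1.77; 1.60 to 1.96).

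**Figure D4:**
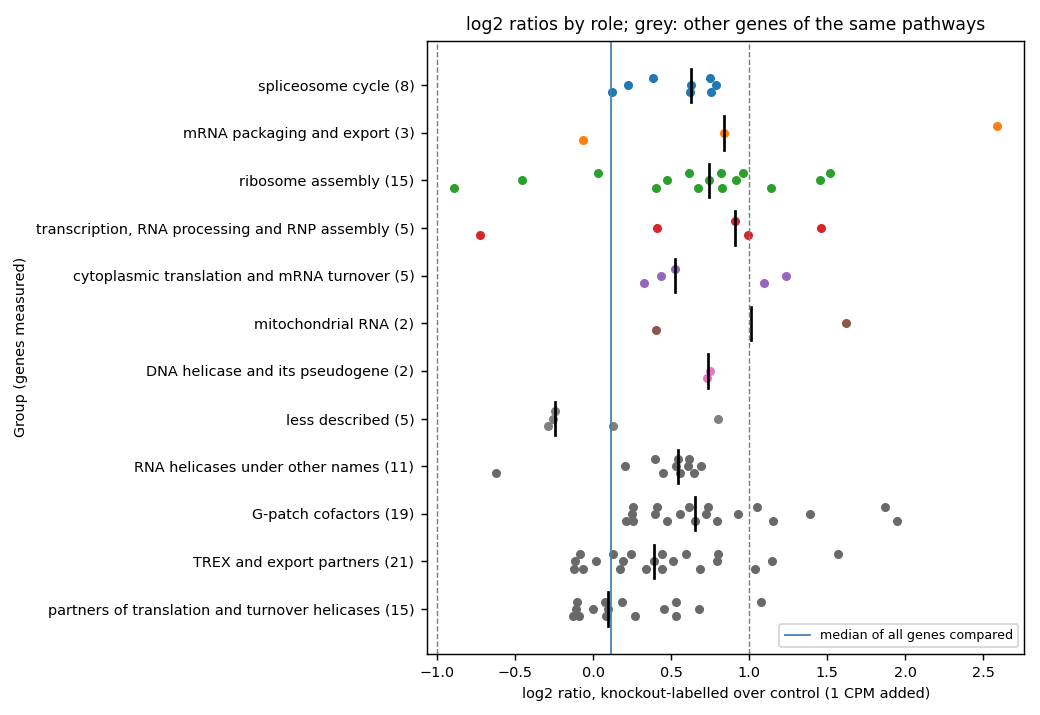
log2 ratio (knockout-labelled over control, 1 CPM added) of each measured gene, by role of the helicases (coloured) and for lists of other genes of the same pathways (dark grey), with the number measured in brackets. Black bars are group medians, dashed lines the 2-fold rule and the blue line the median of all genes compared (0.12); the spliceosome helicases lie between 0.12 and 0.79 and the ribosome assembly helicases between -0.89 and 1.52.

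RNA helicases known by other names had log2 ratios from -0.62 to 0.69, none past the rule. Of 14 listed 11 were measured, 0 were higher or lower by 2-fold, and the median was 0.54. The eIF4A helicases of translation initiation parted: EIF4A1 had 521 and 752 CPM (ratio 1.44, 1.41 to 1.48), while EIF4A2 had 550 and 356 CPM, 1.54-fold lower (1.49 to 1.59). SNRNP200, which unwinds U4 from U6 in the spliceosome, had 285 and 447 CPM.

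The 7 helicases under the minimum fell into 2 kinds. DDX4, DDX25, DDX43 and DDX53, known from germ cells and testis, each stand on 1 row and had at most 6 counts. DDX43 and DDX53 had 0 in both libraries, which allows up to 3 counts, or 0.137 CPM (control) and 0.183 CPM (knockout-labelled). DDX39B, DHX16 and DDX24 stand on 8, 8 and 2 rows, and DDX24 had 0 counts in both. These 3 are used in nearly every cell, so their rows here are not read as absence of the RNA. Of the 47 symbols on 1 row, 43 were measured, and of the 5 on several rows, 2.

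The 45 measured genes lie on 16 chromosomes, 8 of them on chromosome 12, among them DDX51 and DHX37, which passed the rule upward, and DDX47, which had the lowest ratio. Of the 45, 9 have a measured gene on the opposite strand that starts within 1000 bases of their own start. Of these 9 neighbours 0 passed the rule, where 6.78% of all genes compared were higher and 5.69% lower, so nothing is read from this count. NOC4L, which starts 113 bases from DDX51 and serves small subunit assembly, had 22.0 and 44.1 CPM and a log2 ratio of 0.97. SKIV2L2, a nuclear RNA helicase that starts 38 bases from DHX29, had 119 and 163 CPM (log2 ratio 0.45).

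**Figure D5:**
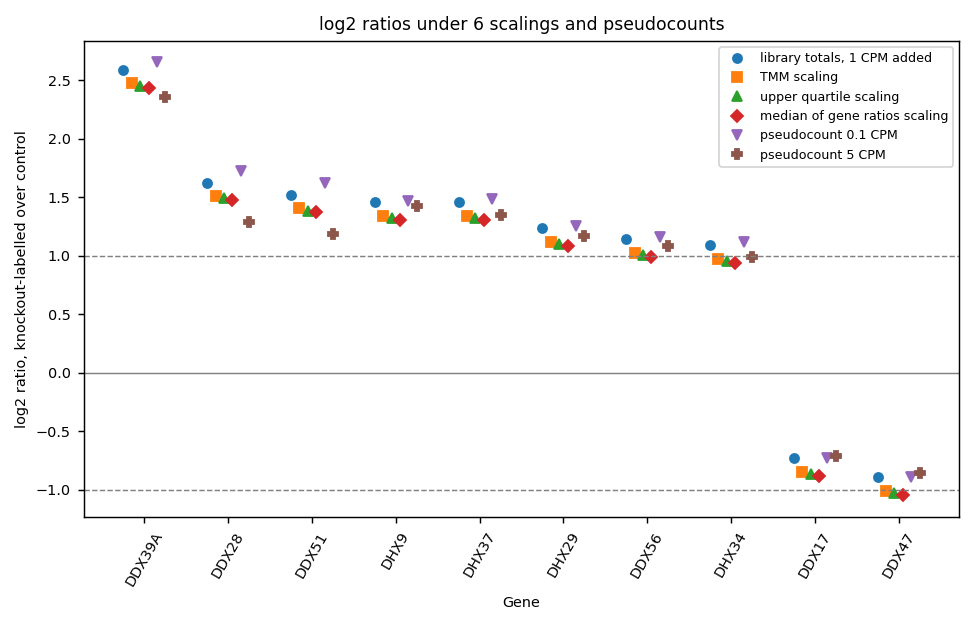
log2 ratio of the 8 genes past the 2-fold rule and of DDX17 and DDX47 under library totals with 1 CPM added and 5 other scalings or pseudocounts. Dashed lines mark the rule; DHX34 and DDX56 cross the upper line and DDX47 the lower one, while DDX39A stays between 2.35 and 2.65.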

How the data were processed

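RNA of DLD1 cells was sequenced in 1 control and 1 knockout-labelled library. Trizol extracts of total RNA went into a directional library kit, per the labels' protocols. Per the submitters' processing notes, TopHat and GRCh38 were used; version, counting program, annotation and strand use were not given in the sources used here. The authors deposited raw counts per gene row, with no normalization. Rows of 1 symbol were summed, and counts were divided by the library total to give CPM (counts per 1000000). The members and lists were chosen with earlier results of these data known. By the naming rule, each measured helicase has its CPM, and those past the rule or at either end of a role group have a ratio. Of each other list, members past the rule are named up to a set limit. Where none passed, those with most counts are named (EIF4A1 and EIF4A2). The G-patch genes past the rule exceed that limit, and all are named. Genes outside the naming rule (among them the other THOC genes, GLE1, TFIP11, CNOT1, SNRNP200 and the neighbours) were chosen after their values were seen. Single-gene ratios are of CPM without a pseudocount, with Clopper-Pearson 95% intervals conditional on the summed count. TMM factors came from edgeR 4.0.16 (R 4.3.3); the other steps used Python 3.11.15 and scipy 1.17.1. Gene positions, exon lengths (union of all exons) and 50-base runs come from GENCODE 29 (GRCh38), and start windows from RefSeq (GRCh38.p14). The scripts were tested on simulated data. Alternatives were other scalings, pseudocounts, minimum levels and size rules, and the omission of symbols on several rows; the further omission of near-identical genes was added after the data had been seen.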

Additional observations from a re-analysis of the deposited data

How the results depend on the processing

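The number of helicase genes at least 2-fold higher (8) was 6 to 9 under the other scalings, pseudocounts and minimum levels, 8 with symbols on a single row only, and 8 without the near-identical genes. It was 26 with a 1.5-fold rule and 2 with a 3-fold rule. The number lower (0) was 1 with TMM, the upper quartile and the median of gene ratios (DDX47 each time), and 2 with a 1.5-fold rule. The median log2 ratio (0.67) was 0.53 with the upper quartile and 0.51 with the median of gene ratios, and the ratio of the summed level (1.38) was 1.27, 1.25 and 1.24 with the 3 scalings. These scalings lower every ratio by construction. Over all 12644 genes compared, 857 were higher and 719 lower with library totals, and 603 and 873 with TMM. They were 576 and 910 with the upper quartile, and 547 and 935 with the median of gene ratios. With a 1.5-fold rule 2567 of all genes were higher and 1674 lower, and with a 3-fold rule 118 and 229. A pseudocount of 0.1 CPM gave 1124 and 887, and 1 of 5 CPM gave 426 and 371. The family was chosen on this contrast, so nothing is read from these counts. Of 95 values of single named genes under the scalings and pseudocounts, 64 moved by no more than the mean reach of their counting interval to either side (log2 scale). The other 31 moved by more, and those past the rule kept their sign. No paired analysis was possible because each group has 1 library, and none could be left out. Depth limits DDX52, DDX60L and DDX12P most among the measured genes.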

Other observations

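The tables also hold symbols derived from helicase genes. Of 25 numbered pseudogene symbols of the family, 4 had any count, 25 counts in all in the control against 16 in the knockout-labelled library. DHX40P1 had 12 and 7 counts and DDX50P1 9 and 4. DDX11-AS1, an antisense RNA that starts 2 bases from DDX11, had 24 and 28 counts, a ratio of 1.56 (0.870 to 2.80), beside 1.68 for DDX11. DDX11L2, a pseudogene of the DDX11L kind, had 13 and 22 counts.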
